A study of Homo sapiens with 8 samples.

Results

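The neighbourhood of FOXA1 on chromosome 14 was examined in GATA2 ChIP-seq peak lists of VCaP, an established human castrate-resistant prostate cancer cell line. It was defined as the joint span of MIPOL1, FOXA1 and TTC6 in RefSeq with 50 kb added on each side (GRCh38, chromosome 14, 37147937 to 37892717). Peaks with a summit in it were taken from the 4 lists, and overlapping peaks were merged, which gave 25 regions of 36122 in the whole series. The groups were 2 precipitates of cells given 1 µM JQ1, an inhibitor of the BET bromodomain proteins, for 24 h, and 2 precipitates of cells labelled as not treated, which the protocol describes as given DMSO. All cells were kept without steroids for 72 h, chromatin was precipitated with an antibody to GATA2, and 4 input samples were not analysed here. Nothing in the labels says whether the 2 replicates of a group came from separate cultures, so the spread between them may be technical.

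FOXA1 codes for a forkhead pioneer factor, a protein that binds its sites in closed chromatin and makes them accessible to other factors. GATA2 is a zinc-finger transcription factor, and in prostate cells both proteins are known to bind at many of the same enhancers. MIPOL1 codes for a coiled-coil protein and TTC6 for a protein with tetratricopeptide repeats. The stretch from MIPOL1 to TTC6 is known to hold enhancers of FOXA1 and to be rearranged in some prostate cancers.

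The 3 genes lie side by side. MIPOL1 (NCBI gene 145282) spans 37197937 to 37552361 and is read toward FOXA1. FOXA1 (NCBI gene 3169) spans 37589552 to 37595249 on the minus strand, 37.2 kb beyond the end of MIPOL1. TTC6 (NCBI gene 319089) spans 37595629 to 37842717 on the plus strand, and its start is 380 bp from that of FOXA1, so that the genes are read away from each other. The 250 bases before each of these starts are shown because no list had a peak there. They are given 5′ to 3′ on the strand of the gene, from RefSeq (GRCh38.p14), and the capitals mark the forkhead letters TGTTTGC, which read GCAAACA on the other strand.
FOXA1, chr14:37595250-37595499, minus strand: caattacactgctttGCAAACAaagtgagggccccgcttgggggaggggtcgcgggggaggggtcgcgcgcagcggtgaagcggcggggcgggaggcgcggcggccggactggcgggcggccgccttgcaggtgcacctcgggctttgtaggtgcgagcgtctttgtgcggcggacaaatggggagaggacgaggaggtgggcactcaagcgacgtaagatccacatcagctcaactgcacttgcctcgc
TTC6, chr14:37595379-37595628, plus strand: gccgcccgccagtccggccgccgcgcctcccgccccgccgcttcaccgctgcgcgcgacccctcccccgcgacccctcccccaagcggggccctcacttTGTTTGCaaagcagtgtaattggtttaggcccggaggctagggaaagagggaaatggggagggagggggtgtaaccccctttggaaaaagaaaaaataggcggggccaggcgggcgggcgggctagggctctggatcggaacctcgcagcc
The sequences overlap by 121 bases, and the marked letters are a single stretch seen from both sides, 235 to 229 bases before the FOXA1 start and 151 to 145 bases before that of TTC6. The GATA letters AGATAA and TGATAA, searched on both strands of the 300-base windows that run from 250 bases before to 50 bases after each start, were found at none of the 3 genes. Of 27305 such RefSeq windows, 16.6% held a GATA match, and 7.15% held either forkhead word, TGTTTAC or TGTTTGC. A match of letters is a description and not a binding site.

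No GATA2 peak lay within 1 kb of the start of FOXA1, TTC6 or MIPOL1 in any list. The share of all gene starts without such a peak is not given here, nor are the distances for other genes. Over the genome windows described below, the JQ1 lists held 1.63 and 10.6 peaks per Mb and the untreated lists 2.26 and 8.97. At such densities most stretches this short hold no peak, so the absence is not a trait of these genes. The peak summit nearest to the FOXA1 start was 48.1 kb away in JQ1 replicate 1, 43.2 kb in JQ1 replicate 2, 48.2 kb in untreated replicate 1 and 28.1 kb in untreated replicate 2. The nearest summit to the MIPOL1 start was 147 and 48.8 kb away in the JQ1 lists and 133 and 131 kb away in the untreated lists. A peak that is missing from a list is one that did not pass the caller's limit there, which is not the same as no binding.

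GATA2 peaks of the neighbourhood lay mostly in MIPOL1. JQ1 replicate 1 had 3 peaks in the neighbourhood and JQ1 replicate 2 had 15, and untreated replicate 1 had 6 and untreated replicate 2 had 18. Peaks are counted by summit. The 18 of untreated replicate 2 lay in 17 intervals, since the interval at 37329179 to 37329722 held an additional summit. Inside the 354 kb of MIPOL1 lay 3 and 11 of the JQ1 peaks and 6 and 14 of the untreated ones. Inside the 247 kb of TTC6 lay 0 and 4 of the JQ1 peaks and 0 and 3 of the untreated ones. In JQ1 replicate 2 this was 16.2 peaks per Mb, against 31.0 in MIPOL1 and 10.6 over the genome. In untreated replicate 2 it was 12.1 per Mb, against 39.5 in MIPOL1 and 8.97 over the genome. A single peak, in untreated replicate 2, lay between MIPOL1 and FOXA1, and the span of FOXA1 and both outer flanks held none. The span of FOXA1 is only 5.70 kb long. The annotation used here gives no exons, so that a place inside a gene means inside its span.

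**Figure D1:**
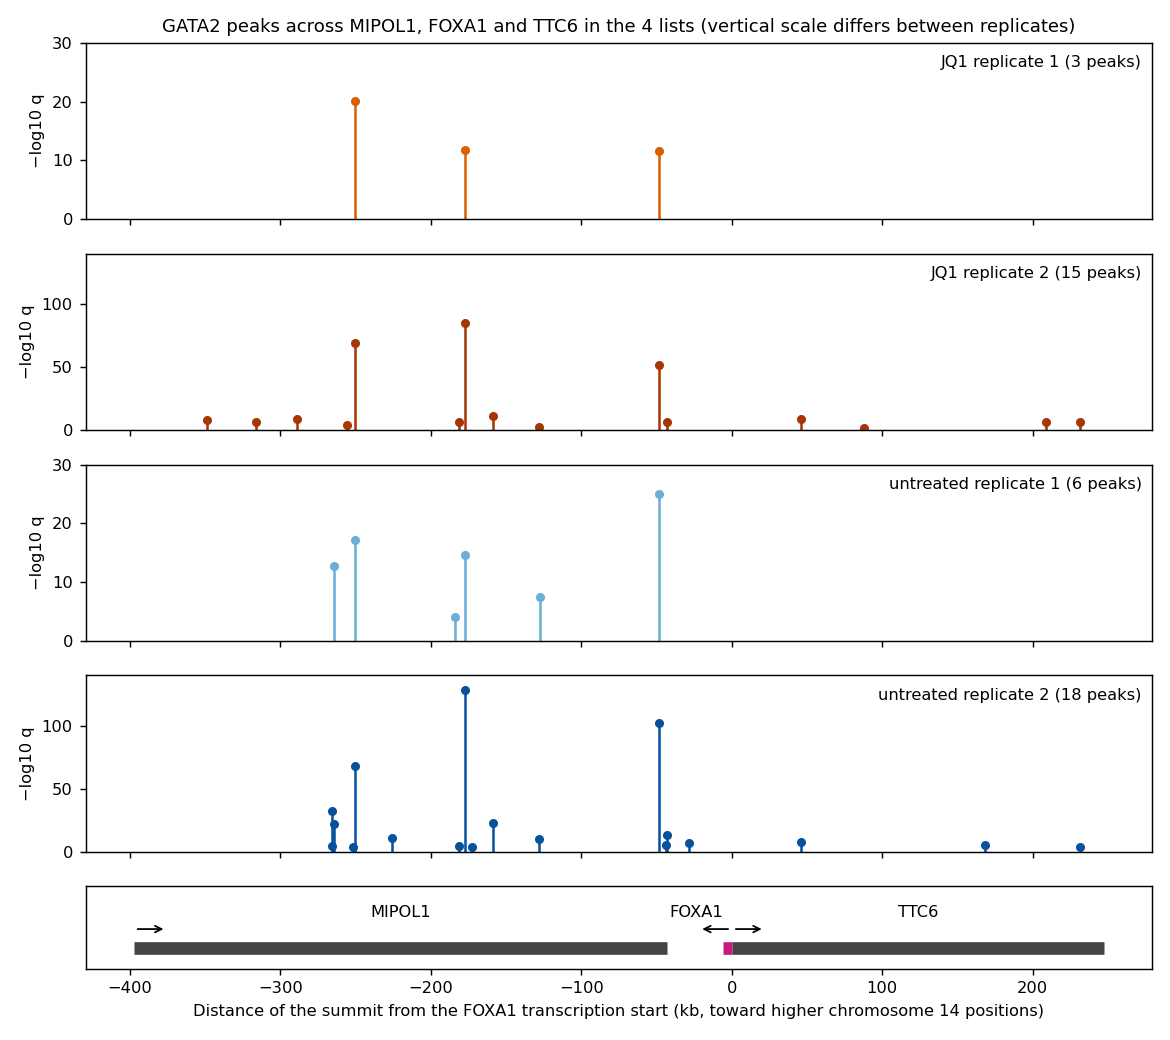
Each stem is a GATA2 peak, placed by the distance of its summit from the FOXA1 start (kb) and as tall as the authors' −log10 q-value in that list; the vertical scale is lower for the replicate 1 lists. Gene spans are bars at the bottom, with arrows at the starts. The same 3 places inside MIPOL1, at 251, 177 and 48.2 kb from the FOXA1 start, carry a peak in each of the 4 lists. Peaks inside TTC6 are low, and fewer than those inside MIPOL1 in each list.

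**Figure D2:**
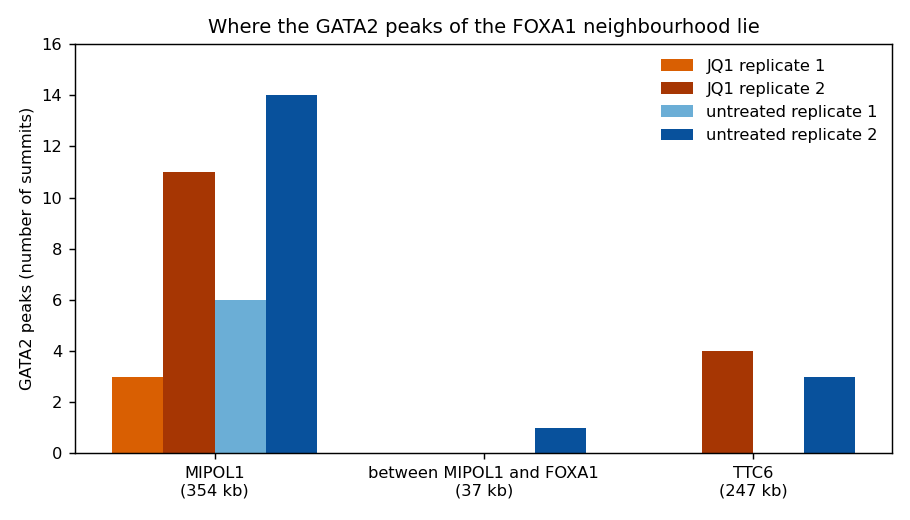
Bars give the number of GATA2 summits in each list inside MIPOL1, between MIPOL1 and FOXA1, and inside TTC6, the places of the neighbourhood with any peak. MIPOL1 holds 3 and 11 peaks of the JQ1 lists and 6 and 14 of the untreated lists.

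The number of peaks in the neighbourhood was lower with JQ1 in each replicate, but by less than the replicates differed among themselves. The JQ1 lists had 9 ± 8.49 peaks there and the untreated lists 12 ± 8.49 (SD, n = 2 each), a log2 ratio of JQ1 to untreated of −0.63 (two-sided exact permutation p = 0.667). With 2 lists against 2, this test cannot go below 0.333. The ratio rested on which lists were set against each other, since it was 0.53 without JQ1 replicate 1 and 0.16 without untreated replicate 2.

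Set against the length of each list, the neighbourhood held fewer GATA2 peaks in both JQ1 lists than in both untreated lists. There were 6.03 and 4.63 neighbourhood peaks per 10000 peaks of the JQ1 lists, against 8.69 and 6.58 of the untreated lists, and the groups did not overlap. The replicate 1 rates rest on 3 peaks with JQ1 and 6 untreated. How many other stretches of this length show the same order is not given here. The means were 5.33 ± 0.992 with JQ1 and 7.63 ± 1.497 untreated (SD, n = 2 each). The log2 ratio was −0.52, with an exact permutation p of 0.333, the smallest this design allows. Within replicates it was −0.53 in replicate 1 and −0.51 in replicate 2. The separation was not seen in lists cut to the length of the shortest, where 3 peaks of each JQ1 list stood against 5 and 3 of the untreated lists. It was also not seen at a q-value of 1e-05 or less, with 7.96 and 4.37 per 10000 in the JQ1 lists against 8.91 and 5.52 in the untreated ones.

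The neighbourhood was denser in GATA2 peaks than most stretches of its length. Its density was 4.03 and 20.1 peaks per Mb in the JQ1 lists and 8.06 and 24.2 per Mb in the untreated lists, against 1.63 and 10.6 per Mb over all windows in the JQ1 lists and 2.26 and 8.97 in the untreated ones. The genome was tiled into 4099 consecutive windows of 745 kb for this. No window was left out, including any without assembled sequence, and windows that can hold no peak lower the means and the shares. In JQ1 replicate 2, 470 windows held no peak, and in untreated replicate 2, 500 held none. At least as many peaks stood in 16.7% and 14.1% of the windows with JQ1 and in 4.90% and 3.49% of the windows untreated. For regions present in all 4 lists, the neighbourhood had 3 and the windows a mean of 0.789, and 8.34% of windows had 3 or more. Windows are not replicates, and these shares place the neighbourhood without testing it.

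**Figure D3:**
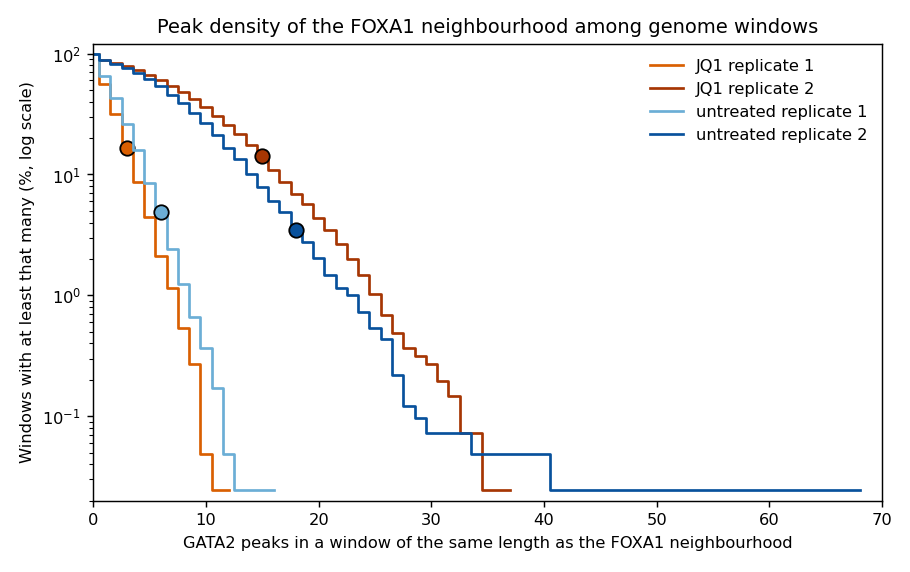
Each line gives, for 1 list, the percentage of 4099 genome windows (log scale) that hold at least the number of GATA2 peaks on the horizontal axis; the ringed point is the FOXA1 neighbourhood. The points lie at 3 and 15 peaks for JQ1 and at 6 and 18 peaks for untreated cells, where 16.7% and 14.1% and then 4.90% and 3.49% of windows had at least as many.

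Of the 25 regions, 3 had a peak in JQ1 replicate 1 and 15 in JQ1 replicate 2, against 13.4% and 85.2% of all regions. In untreated replicate 1, 6 had a peak and in untreated replicate 2, 17 had one, against 18.6% and 72.6%. A single list held 15 of them, or 60%, where 39.98% of all regions were in a single list. Among all 25 regions, 6 were of JQ1 replicate 2 only, against 25.9% of all regions of the series. Untreated replicate 1 alone held 2 of the 25, against 0.634%, and untreated replicate 2 alone held 7, against 13.3%. Another 6 were shared by the replicate 2 lists only, against 38.0% of all regions. In addition 1 was shared by the untreated lists only, and 3 were present in all 4 lists, or 12% (95% Wilson interval 4.17 to 30.0, counting error only) against 8.96% of all regions of the series. Regions present in both JQ1 lists numbered 3, against 13.1% of all regions, and regions present in both untreated lists numbered 4, against 17.6%. The 3 recurrent JQ1 regions were the same 3 that all lists shared, and all 4 recurrent untreated regions lay inside MIPOL1.

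How far the untreated regions of the neighbourhood were also found with JQ1 depended on the lists compared. Of 4 regions recurrent in untreated cells, 3 were present in both JQ1 lists, or 75% (95% Wilson interval 30.1 to 95.4), where 96.5% of such regions of the series were in at least 1 JQ1 list and 50.8% in both. List by list, 3 of 6 regions of untreated replicate 1 had a peak in JQ1 replicate 2, against 92.9% of the series, and 9 of 17 of untreated replicate 2 did, against 80.8%. In JQ1 replicate 1 the same 3 of 6 regions of untreated replicate 1 were found, against 48.7%. The shares were thus below those of the series in JQ1 replicate 2 and near them in JQ1 replicate 1. In the other direction, 9 of 15 regions of JQ1 replicate 2 were present in untreated replicate 2, against 68.8%. Within the groups, all 3 regions of JQ1 replicate 1 were present in JQ1 replicate 2, against 97.7% of the series, and 4 of 6 regions of untreated replicate 1 were present in untreated replicate 2, against 94.8%. The share of untreated replicate 1 was thus below that of the series in the other untreated list too. The numbers are small, and the shares were not tested against the series.

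The region nearest to FOXA1 among those in all lists lay near the end of MIPOL1, at 37546932 to 37547446. Its summit at 37547098 was 48.2 kb from the FOXA1 start on the side where FOXA1 is read out, and 5.26 kb inside the end of MIPOL1. The 4 summits fell within 29 bp of each other. The −log10 q-value, which like the other values per peak is the authors', was 11.5 and 52.0 in the JQ1 lists and 24.9 and 102.2 in the untreated lists. The fold enrichment over local background was 7.07 and 16.3 in the JQ1 lists and 10.8 and 32.3 in the untreated lists. In each replicate the value with JQ1 was the lower one. From these values and the p-values, the number of fragments piled up at the summit could be recovered as 23 and 57 with JQ1 and as 35 and 117 untreated. The 95% Poisson intervals, which cover counting error only, were 14.6 to 34.5 and 43.2 to 73.9 with JQ1, and 24.4 to 48.7 and 96.8 to 140 untreated. Fragment numbers also carry the depth of each library and are not compared between lists.

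This region stood lower in both JQ1 lists than in both untreated lists when ranked within a set common to all. Among the 3236 regions present in all 4 lists, its q-value placed it in the top 44.7% and 60.9% of the JQ1 lists, against the top 27.1% and 25.5% of the untreated lists. Both JQ1 places were below both untreated places, as was the case for 17.6% of the common regions. The drop with JQ1 was 17.6 percentage points in replicate 1 and 35.4 in replicate 2. Drops of at least 17.6 points in both replicates were seen at 173 common regions, or 5.35%. Ranked by fold enrichment, the places were 42.6% and 52.4% with JQ1 and 20.5% and 13.7% untreated, an order that 16.4% of common regions shared. Over the larger set of 21173 regions shared by the replicate 2 lists, the region was in the top 15.2% with JQ1 and the top 4.26% untreated, a difference of 10.9 points. A place in a rank is a description of these lists, and with 2 lists a group no single region can be called changed.

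The region farthest from FOXA1 among those in all lists went the other way when ranked by q-value. It lay at 37344363 to 37344828 inside MIPOL1, with its summit at 37344668, 251 kb from the FOXA1 start. The −log10 q-value was 20.1 and 69.0 in the JQ1 lists and 17.1 and 67.9 in the untreated lists. Fold enrichment was 11.3 and 19.1 with JQ1 and 8.72 and 21.2 untreated, with 26 and 71 fragments and 28 and 95 fragments at the summit. It was in the top 19.0% and 43.5% of the common regions with JQ1 and in the top 44.0% and 50.6% untreated. Both JQ1 places were thus above both untreated ones, as for 16.5% of common regions. The groups overlapped when ranked by fold enrichment, at 9.36% and 39.99% with JQ1 and 35.6% and 39.8% untreated. In replicate 2 the fold enrichment and its rank were thus slightly lower with JQ1. Over the 21173 regions shared by the replicate 2 lists, the region was in the top 9.19% with JQ1 and the top 10.3% untreated by q-value.

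The strongest GATA2 region of the neighbourhood in both replicate 2 lists lay between these, at 37417885 to 37418472 inside MIPOL1. Its summit at 37418123 was 177 kb from the FOXA1 start. The −log10 q-value was 11.8 and 84.7 in the JQ1 lists and 14.6 and 128.6 in the untreated lists, and fold enrichment was 7.497 and 22.01 with JQ1 and 6.19 and 38.9 untreated. In untreated replicate 2 this was the top 1.76% of the whole list. Among common regions it was in the top 43.8% and 31.4% with JQ1 and the top 51.9% and 14.1% untreated, so that it stood higher with JQ1 in replicate 1 and lower in replicate 2. In replicate 1 the strongest region of the neighbourhood was that at 251 kb with JQ1 and that at 48.2 kb untreated.

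**Figure D4:**
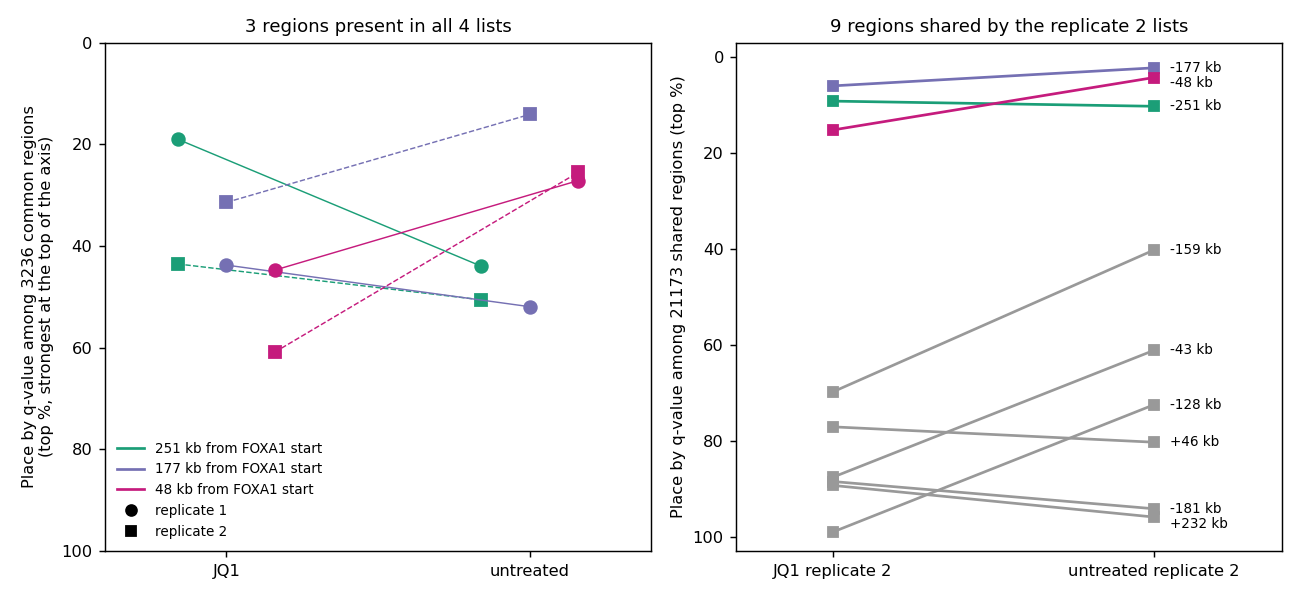
Left, the place of the 3 regions present in all 4 lists among 3236 common regions, by q-value, with JQ1 on the left and untreated on the right; lines join lists of the same replicate number. Right, the place of the 9 regions shared by the replicate 2 lists among 21173 shared regions, labelled by kb from the FOXA1 start. The region at 48.2 kb is lower with JQ1 in both replicates, at 44.7% and 60.9% against 27.1% and 25.5%, the region at 251 kb is higher in both, and that at 177 kb differs in direction.

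A pair of neighbouring regions inside MIPOL1, one recurrent in untreated cells and the other found in a single untreated list, was absent from both JQ1 lists. The region at 37330536 to 37330816, with its summit at 37330649 and 265 kb from the FOXA1 start, had a −log10 q-value of 12.7 and 22.3 in the untreated lists, a fold enrichment of 6.66 and 9.17, and 27 and 52 fragments at the summit. It was in the top 36.4% and 33.2% of those lists. This presence in every untreated list with absence from every JQ1 list was shown by 0.62% of all regions. The opposite pattern was shown by 0.377% of all regions and by 0 of the neighbourhood. The second region, 1.27 kb before it at 37329179 to 37329722, was found in untreated replicate 2 only, with a −log10 q-value of 32.6, a fold enrichment of 15.1 and 50 fragments (Poisson interval 37.1 to 65.9). Of 6192 regions of untreated replicate 2 at least as strong by q-value, 13, or 0.21%, had no peak in JQ1 replicate 2. The nearest summits with JQ1 were 14.02 kb from the region at 37330649 in replicate 1 and 8.59 kb in replicate 2. The second region was singled out after its values were seen. In lists of equal length the neighbourhood had 0 regions that separated the groups.

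The 6 regions shared by the replicate 2 lists only all had a −log10 q-value below the JQ1 list's median of 12.1 with JQ1, and 5 of them one below the untreated list's median of 13.3 untreated. Of these 6, 4 lay in MIPOL1 and 2 in TTC6, with a −log10 q-value of 2.47 to 11.2 with JQ1 and 3.92 to 23.3 untreated. The strongest lay at 37436218 to 37436806, 159 kb from the FOXA1 start, with 11.2 with JQ1 and 23.3 untreated and a fold enrichment of 5.75 and 10.9. Together with the 3 common regions, 9 regions of the neighbourhood were shared by these 2 lists, and 5 of them ranked lower with JQ1 among the 21173 shared regions, against 51.2% of all shared regions. The largest drops were 29.6 points at the region 159 kb from FOXA1, 26.5 points at that 128 kb away and 26.5 points at that 43.2 kb away, all in MIPOL1. They are the extremes of 9 regions, and the spread over all shared regions is not given here. Over the 3236 common regions, a different set, the replicate 2 difference ran from −32.8 to 31.2 points between the 5th and 95th percentiles. The median difference was 3.76 points over the 9 regions and 0.345 points over all shared regions.

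Regions inside TTC6 were seen in the replicate 2 lists and in neither replicate 1 list, and none reached a fold enrichment of 10. The 4 of JQ1 replicate 2 had a −log10 q-value of 1.36 to 9.14 and the 3 of untreated replicate 2 of 3.92 to 7.97. The shared ones lay at 37641242 to 37641520 and 37826837 to 37827016. At the first, 46.2 kb from the FOXA1 start, the −log10 q-value was 9.14 with JQ1 and 7.97 untreated, and at the second it was 6.09 and 3.92. Both ranked higher with JQ1 among the shared regions, at the top 77.1% against 80.3% and the top 89.3% against 95.9%. Over the whole neighbourhood, the 6 regions of JQ1 replicate 2 only lay in MIPOL1 and in TTC6. They had values of 1.36 to 8.73 and 8 to 28 fragments. The 2 regions of untreated replicate 1 only lay in MIPOL1, at 37411378 to 37411597 and 37467531 to 37467689. Their −log10 q-value was 4.11 and 7.498, and the second lay within 1 kb of a region that both replicate 2 lists shared.

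Peaks of high fold enrichment were all in MIPOL1. A fold enrichment of 10 or more was reached by 1 and 3 peaks of the neighbourhood in the JQ1 lists and by 1 and 5 in the untreated lists (2 ± 1.41 and 3 ± 2.83, SD, n = 2 each; exact permutation p = 1). These were 33.3% and 20.0% of its JQ1 peaks and 16.7% and 27.8% of its untreated peaks, where 9.77% and 25.2% of all JQ1 peaks and 13.7% and 32.2% of all untreated peaks reached it. The log2 ratio of −0.37 was 0.42 without JQ1 replicate 1 and 0.79 without untreated replicate 2. The median fold enrichment of neighbourhood peaks was 7.497 and 5.39 with JQ1 and 6.43 and 6.60 untreated, against 5.94 and 6.62 over all JQ1 peaks and 6.14 and 7.46 over all untreated peaks. The deposited values of untreated replicate 2 rest on pileups multiplied by 0.686, as recovered from them, while those of the other 3 lists were unscaled.

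The genes around FOXA1 on the chromosome were also looked at for a GATA2 region in all 4 lists within 50 kb of their span. Of 13 matched genes of the chromosome 14 list, 8 had one, or 61.5%, beside 13.6% of 20037 protein-coding genes. The difference was not tested, and the genes are not independent, since neighbours share regions and FOXA1, MIPOL1 and TTC6 are among the 8. These 8 were FOXA1, MIPOL1, TTC6, SLC25A21, a mitochondrial carrier gene, SSTR1, a somatostatin receptor gene, CLEC14A, a gene of an endothelial lectin, RALGAPA1 and INSM2, and they shared 7 distinct regions. FOXA1 and TTC6 had the region at 48.2 kb as their only one, and MIPOL1 had 3. A region in all 4 lists is by definition recurrent with JQ1 and untreated, so that each of the 8 had both. Over all protein-coding genes, 17.8% had a region recurrent with JQ1 and 24.3% one recurrent untreated. The other 5, BRMS1L, MBIP and the genes of the developmental regulators NKX2-1, NKX2-8 and PAX9, had no region recurrent with JQ1 or untreated.

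Of 28 forkhead genes, 3 had a region in all 4 lists, or 10.7%, which is near the 13.6% of all protein-coding genes. These were FOXA1, FOXN3 and FOXP1, each with 1. Of 20 genes of FOXA1 partners and cofactors, 7 had one, or 35.0%, beside the same 13.6%. Among them were the transcription factor genes GRHL2 and NFIB with 2 each, ERG and NFIX with 1 each, and the corepressor genes TLE1 and TLE3 with 1 each. With JQ1, 9 of the 20 had a recurrent region, beside 17.8% of all genes, and untreated 13 did, beside 24.3%; these shares were not tested. The median number of regions present in all 4 lists was 1 in the chromosome 14 list and 0 in the other lists and over all genes. Longer genes have more room for a region, and the lists were not matched for length.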

How the data were processed

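Each GATA2 precipitate had its own peak list, so the authors called peaks per sample. Bowtie2, Picard and MACS2 and the build hg38 are named per the submitters' processing notes, with versions not given in the sources used here. Each deposited line gives a whole-number score, not used here, a fold enrichment (a linear ratio at the summit) and 2 significance values on the −log10 scale, for the p-value and the q-value, all by the authors' caller. They belong to the calling of each list and were used to describe, rank or filter within it. The sequencing depth is unknown. The lists of chromosomes 1 to 22, X and Y held 4974 and 32404 peaks with JQ1 and 6902 and 27373 untreated.

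Peaks overlapping by at least 1 bp were merged over the lists. Recurrent means present in both lists of a group. The pileup and background behind a peak were recovered from fold = (pileup + 1)/(background + 1) and the Poisson tail. In each list 100% of 500 sampled peaks gave whole fragment numbers (tolerance 0.001 in −log10 p), after a scale of 0.686 in untreated replicate 2. Counts per list were compared as log2 values by exact permutation of the 6 possible splits, two-sided, with the replicate number as no term. The share of regions in all 4 lists and that of recurrent untreated regions found with JQ1 carry 95% Wilson intervals. The other shares carry none. Genes and promoters came from RefSeq tables of GRCh38.p14, the build hg38. One of 14 chromosome 14 list genes, SFTA3, was not among its protein-coding genes. The regions given in full are those recurrent in a group or strongest in a list, with 1 more named after its values were seen, and the list genes named are those with a region in all 4 lists, at most 8 a list; 1 such gene is not reported here. The members and lists were chosen with earlier results of these data known, and the rank by fold and the share of chromosome 14 were added after seeing the data. The merging and the pileup step were tested on simulated data. Python 3.11.15, NumPy 2.4.6, pandas 2.3.3, SciPy 1.17.1, Biopython 1.88 and Matplotlib 3.10.9 were used.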

Additional observations from a re-analysis of the deposited data

How the results depend on the processing

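The number of peaks in the neighbourhood per list kept its direction, lower with JQ1, in lists of equal length, at a q-value of 1e-05 or less and with a flank of 0 or 100 kb. Its log2 ratio of −0.63 ran from −1.79 to 0.53 over the settings that left out a list or a replicate. Neighbourhood peaks per 10000 kept their direction in every setting run, from −0.72 to −0.25, and as a share of chromosome 14 peaks the ratio was −0.49. The number with a fold enrichment of 10 or more had a log2 ratio of 0 in lists of equal length, and of −1.53 to 0.79 with a list or a replicate left out. The replicate block left the ratios at −0.63, −0.52 and −0.37, with an exact p of 0.5, 0.5 and 1, where 0.5 is the smallest possible. Same-numbered lists deviated together over the common regions (r = 0.213), but the labels do not say what the numbers share.

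Regions in all lists numbered 3 in each setting with 4 lists, and 3 and 9 with a replicate left out. Without a replicate, regions of untreated lists numbered 6 and 17, those of JQ1 lists 3 and 15, those of untreated only 3 and 8 and those of JQ1 only 0 and 6, and the share found with JQ1 was 50% and 52.9%. With lists of equal length no region was separated in either direction (0) and 100% of the untreated recurrent regions were in both JQ1 lists. The density over the mean window, 2.66 on average, stayed between 2.30 and 3.07. The JQ1-minus-untreated difference in rank place kept its sign for the regions at 48.2 kb (10.9 to 33.1 points) and 251 kb (−24.7 to −1.08). At 177 kb it was 4.56 points, −3.04 by fold enrichment and, with a replicate left out, −8.08 to 3.76; the cause was not tested. Regions seen in a single list rest on 8 to 50 fragments, and the sequencing depth behind them is unknown.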
